A study of Mus musculus with 8 samples.

Results

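The forebrain patterning transcription factors followed here are Pax6, Emx1, Emx2, Otx1, Otx2, Lhx2, Six3, Dmrta2 and Nr2e1, a list of 9 genes of the 19726 genes that had a named probe on the array. Their probes were found by matching the RefSeq transcript each probe was designed for, and there were 10, with 2 for Pax6 and 1 for each other gene. The cells were mouse neural stem and progenitor cells (NSPCs), grown as neurospheres from embryonic stem cells and sorted by fluorescence out of cultures that mixed NFIA-overexpressing (OE) cells with control (CT) cells. NFIA is a transcription factor of the switch from neuron to astrocyte formation. Primary neurospheres (PNs, passage 0) were taken after 6 days of culture since embryoid bodies and secondary neurospheres (SNs, passage 1) after 12 days. There were 2 arrays in each of 4 groups: PN_control (wild-type or control cells, passage 0), PN_NFIA (NFIA OE, passage 0), SN_control (passage 1) and SN_NFIA (NFIA OE, passage 1). The promoter that drives NFIA, the stem cell lines and what separates the arrays of a group were not given in the sources used here, so p-values measure the spread between these arrays, which may be technical.

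The early forebrain is laid out by transcription factors that divide the anterior neural plate into regions and then set positions within the cortical primordium. Otx1 and Otx2 act in the forebrain and midbrain as a whole, Six3 at the most anterior end, and Lhx2, Pax6, Emx1, Emx2 and Dmrta2 in the progenitors of the dorsal telencephalon, from which the cortex and hippocampus form. Nr2e1, an orphan nuclear receptor also called Tlx, keeps forebrain neural stem cells dividing. Several of these genes work outside the forebrain too: Pax6 and Six3 in the eye, and Otx2 in epiblast cells before the neural plate forms and later in choroid plexus and retina.

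The scanner file deposited with a sample was that of another sample, by the authors' value table, in 7 of 8 cases; arrays were therefore assigned by the value table, whose columns each matched 1 file. So assigned, primary and secondary arrays lay in different rows of the slide, and control and NFIA arrays in different columns, and passage and NFIA cannot be told apart from place on the slide. Both PN_NFIA 1 and SN_NFIA 2 carry a source name of wild-type cells against their titles, and all 4 control samples carry one of the NFIA line. Groups follow the titles. Signal was well above background at 45.4% to 56.4% of spots, depending on the array. Nfia itself, by its brighter probe, stood at -1.30 and -0.30 in PN_control, -0.24 and 0.93 in PN_NFIA, 1.00 and 0.61 in SN_control, and 1.70 and 1.62 in SN_NFIA, which is higher in NFIA cells by 1.00 ± 0.32 over both passages (limma adjusted p = 0.172). With passage this probe rose by 1.46 ± 0.32 (limma adjusted p = 0.0390). Its dimmer probe was higher in NFIA cells by 1.95 ± 0.43 over both passages (fit by probe, limma adjusted p = 0.0908). Levels are log2 signals relative to the 75th percentile of the array, 0 being that percentile. Differences are log2 values ± SE from limma, and adjusted p (Benjamini-Hochberg) is over the 13779 genes tested. All 8 markers of neural progenitors, among them Sox2, Nes and Vim, were well above background on all 8 arrays.

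Of the forebrain patterning genes, Dmrta2, Lhx2 and Pax6 fell from primary to secondary neurospheres over both cell types, by 7.80-fold, 5.94-fold and 4.42-fold. In all, 3 of the 8 tested members fell and 0 rose at an adjusted p under 0.05, while 3.88% of all genes tested fell and 3.42% rose. The difference was negative for 8 of 8 members with a median of -1.76, against a median of -0.08 and 57.4% negative values over all genes tested. Emx1 was not tested, since it was well above background on 1 array only, PN_control 1.

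**Figure D1:**
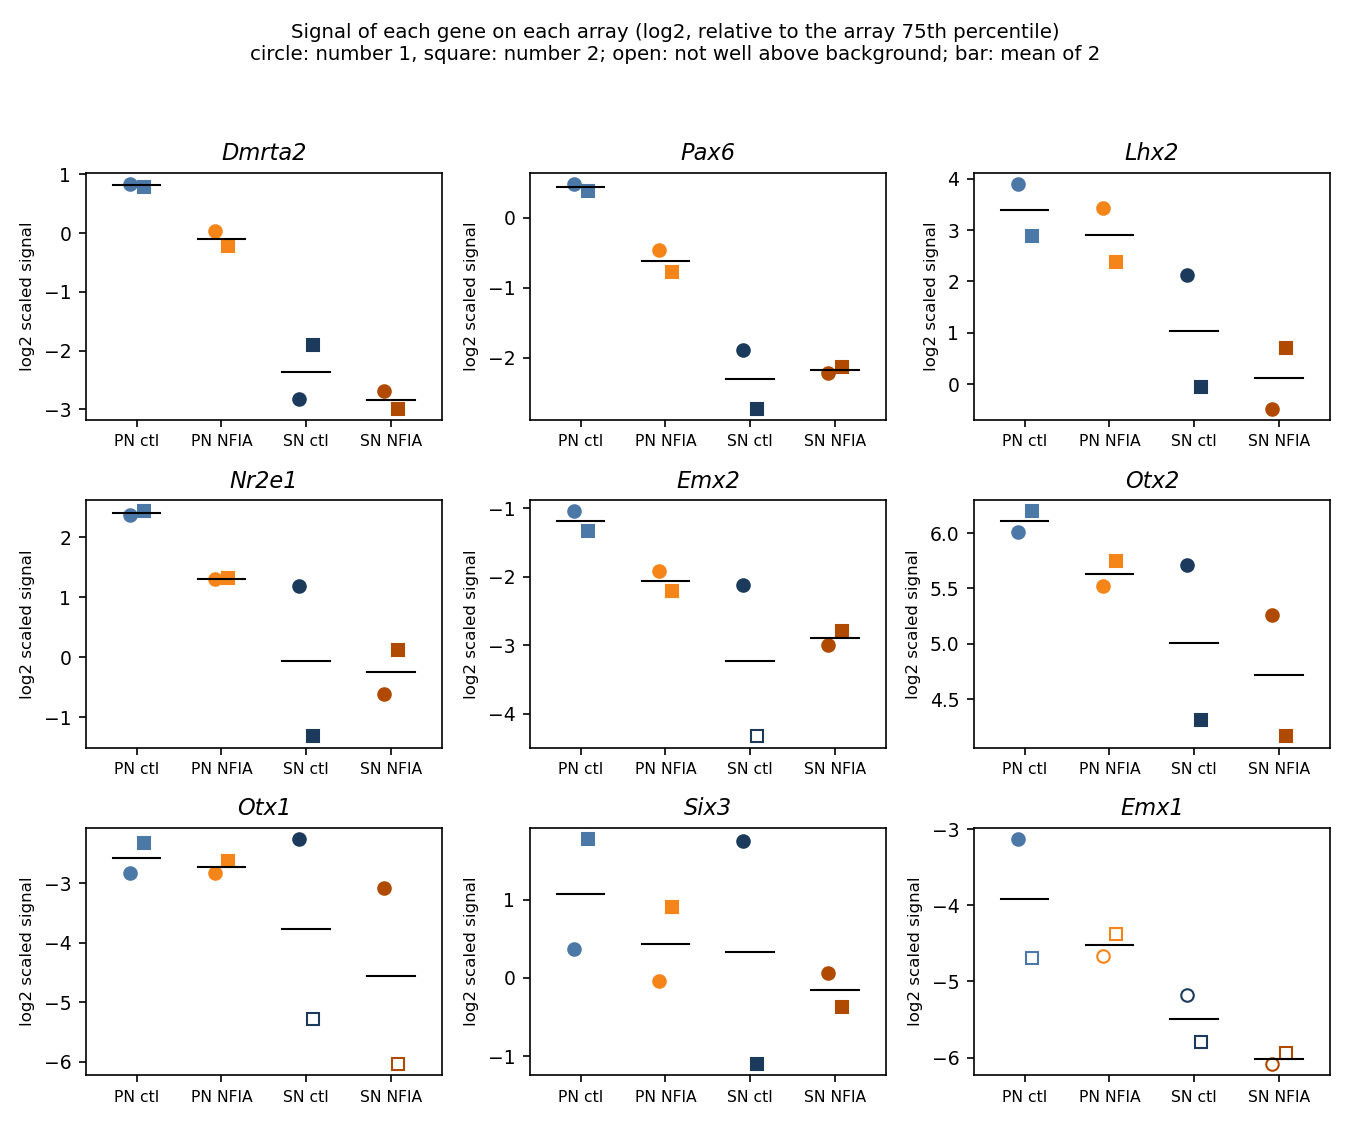
Signal of the 9 genes on each array, as log2 relative to the 75th percentile of the array (y axis, a scale of its own per gene), for control (ctl) and NFIA cells of primary (PN) and secondary (SN) neurospheres. Circles are arrays numbered 1, squares arrays numbered 2, open symbols spots not well above background and bars the mean of 2 arrays; Dmrta2, Pax6, Lhx2 and Nr2e1 lie lower on all 4 secondary than on all 4 primary arrays.

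Dmrta2, also called Dmrt5, a zinc finger factor of the DM domain family that patterns the caudal and medial cortex, had the smallest p of all 13779 genes for passage. It stood at 0.84 and 0.79 in PN_control, 0.03 and -0.22 in PN_NFIA, -2.83 and -1.91 in SN_control, and -2.70 and -2.99 in SN_NFIA. The 4 primary arrays lay above the 4 secondary arrays, with no overlap. The difference was -2.96 ± 0.24 (limma adjusted p = 0.00911, 4 arrays a side), with group means lower by 3.18 in control and 2.75 in NFIA cells. The difference stayed past the test with each of the 8 arrays left out in turn, between -3.10 and -2.74.

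Pax6, a paired-box and homeodomain factor that sets dorsal identity in the telencephalon and is needed for the eye, gave the same picture with both of its probes. Its brighter probe stood at 0.48 and 0.38 in PN_control, -0.46 and -0.77 in PN_NFIA, -1.89 and -2.72 in SN_control, and -2.22 and -2.13 in SN_NFIA. The primary and secondary arrays did not overlap, and the 2 PN_NFIA arrays lay between PN_control and the secondary arrays. The passage difference was -2.15 ± 0.30 (limma adjusted p = 0.0160). The dimmer probe was well above background on all 4 primary arrays, at -1.85 and -1.81 in PN_control and -2.51 and -2.59 in PN_NFIA, and on 0 of 4 secondary arrays. It was at least 2.69-fold higher in primary neurospheres, taking the lowest signal well above background on each secondary array, or the measured signal where higher, as its level there (fit by probe, limma adjusted p = 0.0211). Without PN_control 1, PN_control 2 or PN_NFIA 1 the adjusted p of the brighter probe was 0.0518, 0.0510 and 0.0564, so the call rests on each of them.

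Lhx2, a LIM homeodomain factor that selects cortical over hem fate in the medial telencephalon, fell too, with more spread between arrays. It stood at 3.90 and 2.88 in PN_control, 3.43 and 2.37 in PN_NFIA, 2.13 and -0.06 in SN_control, and -0.48 and 0.70 in SN_NFIA. The primary arrays lay above the secondary ones without overlap, although SN_control 1 came close to PN_NFIA 2. The difference was -2.57 ± 0.54 (limma adjusted p = 0.0348). Of the 8 arrays, leaving out SN_control 1 kept this call (adjusted p = 0.0161), and leaving out any of the other 7 ended it, with an adjusted p between 0.0593 and 0.111. Without the filter on dim probes the adjusted p was 0.0573.

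Nr2e1 was lower by 4.02-fold and missed the threshold. Its values were 2.37 and 2.43 in PN_control, 1.30 and 1.33 in PN_NFIA, 1.19 and -1.31 in SN_control, and -0.61 and 0.13 in SN_NFIA. Again the 4 primary arrays were above the 4 secondary ones, and SN_control 1 and 2 differed by 2.51. The difference was -2.01 ± 0.51 (limma adjusted p = 0.0563), and without SN_control 1 or SN_control 2 the adjusted p was 0.0266 and 0.0304. With Dmrta2, Pax6 and Lhx2 this makes 4 of 8 members with all secondary arrays below all primary arrays, a pattern that 8.03% of all genes tested had.

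The other 4 members did not pass the test for passage. Emx2, a homeodomain factor of the caudal and medial cortex and hippocampus, stood at -1.05 and -1.33 in PN_control, -1.91 and -2.21 in PN_NFIA, -2.12 and -4.33 in SN_control, and -3.00 and -2.79 in SN_NFIA, and was not well above background in SN_control 2. Its primary and secondary arrays overlapped by SN_control 1 alone, and the difference was -1.44 ± 0.48 (limma adjusted p = 0.108; 0.0477 without SN_control 2). Otx2, which is required for forebrain and midbrain to form, stood at 6.01 and 6.20 in PN_control, 5.52 and 5.75 in PN_NFIA, 5.71 and 4.31 in SN_control, and 5.26 and 4.17 in SN_NFIA. Its difference was -1.01 ± 0.35 (limma adjusted p = 0.120). Otx1, its paralogue, with a role in cortical growth, stood at -2.83 and -2.33 in PN_control, -2.84 and -2.62 in PN_NFIA, -2.26 and -5.28 in SN_control, and -3.08 and -6.04 in SN_NFIA, and was not well above background in SN_control 2 and SN_NFIA 2. The difference of -1.51 ± 0.78 (limma adjusted p = 0.265) came with values in SN_control 1 as high as in primary cells. Six3, a homeodomain repressor of Wnt signalling at the anterior end of the neural plate, stood at 0.37 and 1.77 in PN_control, -0.04 and 0.90 in PN_NFIA, 1.75 and -1.10 in SN_control, and 0.07 and -0.37 in SN_NFIA. Its primary and secondary arrays overlapped, and the difference was -0.67 ± 0.61 (limma adjusted p = 0.530, 95% confidence interval -2.08 to 0.75; -1.22 to -0.08 with 1 array left out). Emx1, a homeodomain factor of cortical progenitors, had its 1 signal well above background in PN_control 1, at -3.13, against -4.70 in PN_control 2 and between -6.08 and -4.37 on the 6 other arrays.

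**Figure D2:**
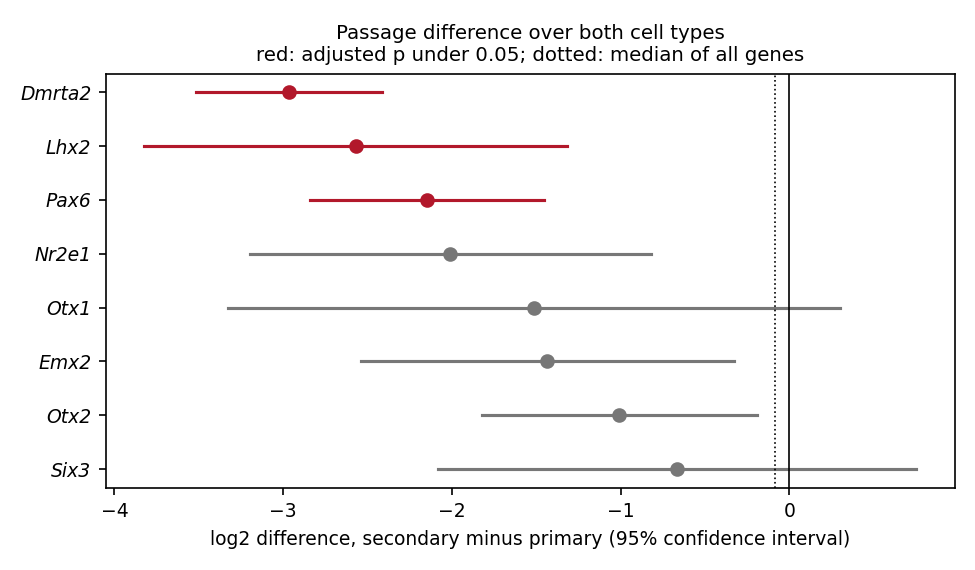
Log2 difference of secondary minus primary neurospheres over both cell types for the 8 tested members (x axis), as the limma estimate with its 95% confidence interval. Red marks an adjusted p under 0.05, and the dotted line the median of all genes tested at -0.08; Dmrta2, Lhx2 and Pax6 are past the test, while the intervals of Otx1 and Six3 span 0.

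Assignment of the arrays decides the passage result. With each scanner file taken for the sample it is attached to, 0 of 8 members and 0 of all genes passed, and the differences of Dmrta2, Pax6 and Lhx2 were -0.23, 0.33 and 1.36. Without the 2 arrays whose source name says wild type, PN_NFIA 1 and SN_NFIA 2, the differences were -2.94, -2.31 and -2.52, as large as with them, and the adjusted p rose to 0.0809, 0.0932 and 0.148, with 0 of all genes called.

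Promoters of 3 members are shown because Dmrta2 and Pax6 had the smallest p for passage and Six3 is the only 1 of the 8 members with a window that has TTGGCA. This is 1 motif for NFI factors, the family of NFIA. The windows run from 250 bases before to 50 bases after a gene start in RefSeq on GRCm38.p6, 5′ to 3′, and capitals mark TTGGCA, a motif for 1 unit of an NFI dimer.
Dmrta2, chr4:109977775-109978074, plus strand: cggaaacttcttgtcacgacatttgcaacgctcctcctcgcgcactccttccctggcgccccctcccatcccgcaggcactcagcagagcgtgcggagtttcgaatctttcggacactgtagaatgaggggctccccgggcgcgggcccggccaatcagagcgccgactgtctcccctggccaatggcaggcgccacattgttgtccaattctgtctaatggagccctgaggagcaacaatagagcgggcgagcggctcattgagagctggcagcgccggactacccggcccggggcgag
Pax6, chr2:105668646-105668945, plus strand, the more upstream of 2 starts: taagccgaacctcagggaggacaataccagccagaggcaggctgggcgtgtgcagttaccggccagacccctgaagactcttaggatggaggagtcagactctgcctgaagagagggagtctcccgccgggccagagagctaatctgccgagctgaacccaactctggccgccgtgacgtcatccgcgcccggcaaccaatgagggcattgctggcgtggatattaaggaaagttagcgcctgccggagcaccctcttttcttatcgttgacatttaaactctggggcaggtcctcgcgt
Six3, chr17:85620584-85620883, plus strand: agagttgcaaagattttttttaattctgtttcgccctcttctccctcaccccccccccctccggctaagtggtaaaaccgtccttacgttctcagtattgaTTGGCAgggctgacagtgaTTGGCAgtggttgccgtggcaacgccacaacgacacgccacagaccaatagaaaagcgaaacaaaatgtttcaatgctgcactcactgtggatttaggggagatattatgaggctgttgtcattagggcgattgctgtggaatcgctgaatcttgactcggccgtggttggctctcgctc
RefSeq held a window for 8 of the 9 members, all but Otx1, with 13 windows in all. TTGGCA, on either strand, was in 1 of 13 windows, that of Six3, at positions -149 and -130 from the gene start, and in 14.1% of all 32841 windows. The dimer motif, TTGGC and GCCAA with 5 bases of any kind between, was in 0 of 13 and in 0.037% of all windows. The shorter TTGGC, or GCCAA on the other strand, was not counted. It is also present, unmarked, in the windows of Dmrta2 and Six3 shown above. The homeodomain motif TAATTA was in 3 windows, of Otx2 and Emx2, and in 5.29% of all windows, and TAATCC, an OTX motif, in 1 window, of Otx2, and in 7.06% of all. The member windows had a median of 18 CpG dinucleotides against 7 over all windows. Counts ran from 6 in an Otx2 window to 37 in that of Emx1. Of the windows shown, that of Dmrta2 had 26, that of Pax6 18 and that of Six3 14. These are matches of letters and say nothing of binding.

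Against NFIA, the members were lower by smaller amounts that did not pass the test. Over both passages 0 of 8 members passed, where 1.97% of all genes did, and the estimate was negative for 8 of 8 with a median of -0.51, against -0.05 and 55.4% negative over all genes tested. At an unadjusted p under 0.05, reached by 17.7% of all genes, there was 1 member, Dmrta2, at -0.69 ± 0.24 (limma adjusted p = 0.197). Lhx2 differed by -0.71 ± 0.54, Nr2e1 by -0.63 ± 0.51, Six3 by -0.56 ± 0.61, Otx1 by -0.47 ± 0.78, Pax6 by -0.46 ± 0.30, Otx2 by -0.38 ± 0.35 and Emx2 by -0.27 ± 0.48. With 1 array left out these values moved widely, between -1.14 and -0.0047 for Six3, -1.10 and -0.23 for Lhx2, and -0.68 and -0.12 for Otx2. Without SN_control 2, Nr2e1 was at -1.22 and passed (limma adjusted p = 0.0463). Grouped by source name instead of title, 7 of 8 estimates were positive.

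In primary neurospheres 5 of 8 members, Pax6, Emx2, Otx2, Dmrta2 and Nr2e1, had both PN_NFIA arrays below both PN_control arrays, a pattern of 30.1% of all genes tested. Pax6 differed by -1.05 ± 0.32 (limma adjusted p = 0.331), Dmrta2 by -0.91 ± 0.34 (limma adjusted p = 0.452), Nr2e1 by -1.09 ± 0.73 (limma adjusted p = 0.721) and Emx2 by -0.87 ± 0.64 (limma adjusted p = 0.744). All 8 estimates were negative, with a median of -0.76, against 57.3% negative and a median of -0.08 over all genes tested. Of the members 0 of 8 passed, where 0.312% of all genes did. At an unadjusted p under 0.05 there were 2 of 8, Pax6 and Dmrta2, against 9.56% of all genes. Lhx2 and Six3, at -0.49 and -0.64, differed more between arrays of a group (by 0.94 to 1.40) than between NFIA and control cells, and in both groups the same number was higher, 1 for Lhx2 and 2 for Six3. Taken by number, each PN_NFIA array lay below its PN_control array. For Lhx2 this was 3.43 against 3.90 and 2.37 against 2.88, and for Six3 -0.04 against 0.37 and 0.90 against 1.77. The labels do not say whether same-numbered arrays are pairs. With same-numbered arrays as blocks, 0 of 8 members passed as well. The estimates of Otx2 and Otx1 were -0.47 and -0.15.

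In secondary neurospheres 0 of 8 members had NFIA arrays wholly below control arrays, a pattern of 19.7% of all genes tested, and 0 of 8 passed the test, where 0.936% of all genes did (0 of 8 at an unadjusted p under 0.05, against 15.1% of all genes). Estimates ran from -0.92 for Lhx2 to 0.33 for Emx2, with Pax6 at 0.13 ± 0.32 (95% confidence interval -0.63 to 0.89) and Dmrta2 at -0.47 ± 0.34. The NFIA estimate of Pax6 was higher in secondary than in primary neurospheres by 1.18 ± 0.45, with an unadjusted p of 0.0350 and a limma adjusted p of 0.690, so the passages were not shown to differ. For the difference between passages 0 of 8 members and 0 of all genes passed the limma test, with 6.76% of all genes at an unadjusted p under 0.05.

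**Figure D3:**
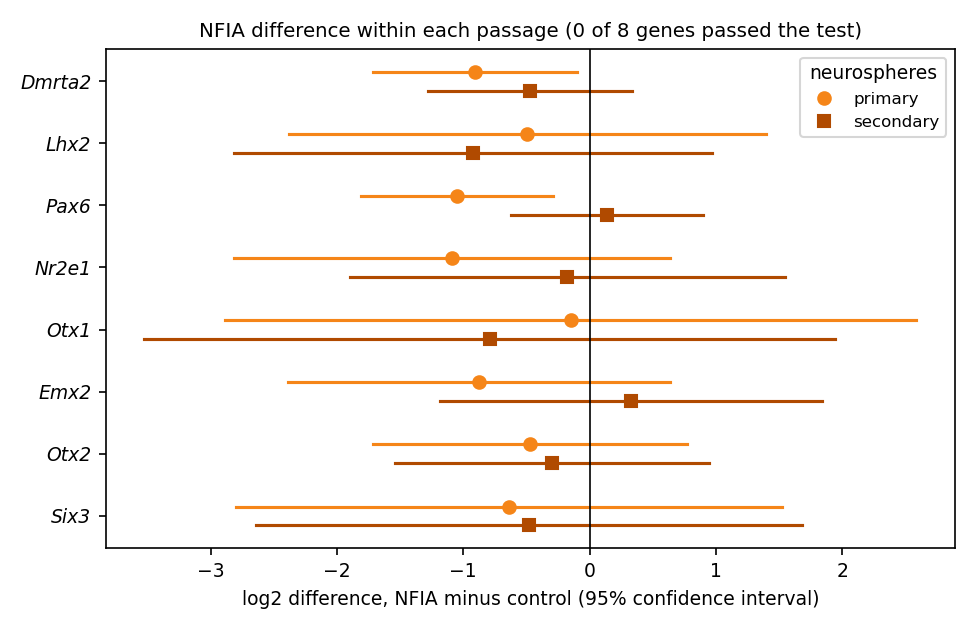
Log2 difference of NFIA minus control cells for the 8 tested members (x axis) in primary (circles) and secondary (squares) neurospheres, as limma estimates with 95% confidence intervals. In primary neurospheres the intervals of Pax6 and Dmrta2 lie below 0, and in secondary ones all 8 span 0; 0 of 8 members passed at an adjusted p under 0.05 in either.

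Ordered by group mean, PN_control was highest for 8 of 8 members, and the lowest was SN_NFIA for 6 and SN_control for 2, Pax6 and Emx2. PN_NFIA lay between PN_control and the secondary groups for all 8. The share of all genes with these orders was not computed, so the orders are not shown to be particular to the members. The test did not tell PN_control from PN_NFIA, which differed by at most 1.09, nor SN_control from SN_NFIA, which differed by at most 0.92. The step from PN_NFIA to the nearer secondary group was not tested by itself. The step from PN_control to SN_control was larger than that from PN_NFIA to SN_NFIA for Pax6 (means lower by 2.74 against 1.55), Nr2e1 (2.46 against 1.55) and Emx2 (2.04 against 0.83), and smaller for Lhx2 (2.35 against 2.79) and Otx1 (1.19 against 1.83); the difference of these steps is the same quantity as the difference of NFIA effects, which did not pass.

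The SN_control arrays differed from each other in these genes more than in most. Between SN_control 1 and 2 the members differed by a median of 2.20, against 0.47 over all genes tested. In SN_control 1, 7 of 8 were higher, all but Dmrta2, against 48.1% of all genes tested. Otx1 differed by 3.03, Six3 by 2.85, Nr2e1 by 2.51, Emx2 by 2.21 and Lhx2 by 2.19. For Otx1 and Emx2 the lower spot was not well above background, so the sizes of these splits are not firm, and the median includes them. In SN_NFIA the measured split of Otx1 was 2.96, again with a lower spot not well above background. Otx2 was split the same way (5.26 and 4.17), while Lhx2 and Nr2e1 went the other way by 1.18 and 0.74. Otx2 was thus lower on the secondary arrays numbered 2, and Otx1 was not well above background there. Those arrays also had high levels of Sox10, the oligodendrocyte lineage factor, which stood at 3.88 in SN_control 2 and 3.08 in SN_NFIA 2, against -0.36 and -0.60 in SN_control 1 and SN_NFIA 1. In primary arrays the members differed between arrays of a group by a median of 0.23 in control and 0.28 in NFIA cells.

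Some markers of other cell types changed between the same passages, most of them upwards, and their part in the result was not tested. Of all genes tested 3.42% rose and 3.88% fell with passage. In bulk RNA, fewer cells of a type and less RNA per cell cannot be told apart. Sums over markers are given as the log2 of their summed signals, in which the brightest marker weighs most. The sum of 7 astrocyte markers ran from 3.89 to 4.13 in PN_control, 5.99 to 7.65 in PN_NFIA, 5.74 to 7.76 in SN_control and 8.94 to 9.72 in SN_NFIA. With passage 4 of 7 rose, Aldh1l1, Gfap, Slc1a3 and Sparcl1, of which Gfap was well above background in SN_NFIA only. Over both passages 1 of 7 was higher in NFIA cells, where 1.97% of all genes passed. All 7 estimates were positive, with a median of 1.79. The sum of 6 oligodendrocyte markers ran from 2.88 to 3.16 on primary and 3.74 to 8.54 on secondary arrays, and 3 of 6 rose, Olig1, Pdgfra and Sox10. The sum of 6 mesenchyme markers ran from 1.22 to 1.43 in PN_control, 2.79 to 3.55 in PN_NFIA, 4.10 to 5.45 in SN_control and 3.54 to 4.17 in SN_NFIA. Of them Col1a1 rose with passage, and Acta2 and Prrx1 were higher in NFIA cells over both passages. Of 6 pluripotency markers, with sums of 5.32 to 6.27 on primary and 2.79 to 5.37 on secondary arrays, Esrrb fell with passage. Over 8 neuronal markers the sum ran from 6.99 to 7.48 on primary and 6.25 to 7.86 on secondary arrays, with Stmn2 (-1.69 ± 0.37) the 1 that fell. The 8 neural progenitor markers had sums of 8.03 to 8.52 on primary and 8.08 to 9.38 on secondary arrays and mean log2 levels of 4.18 to 4.61 and 3.76 to 4.51. For passage 0 of 8 passed, and 7 were negative with a median of -0.21.

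For the other tissues in which some members act, 3 to 4 of 8 retinal and pigment epithelium markers were well above background on each primary array and 1 to 2 on each secondary array. The lowest signal well above background was itself higher on secondary arrays (-3.97 to -3.14) than on primary ones (-4.50 to -4.29). The log2 of the summed signal of the 8 markers ran from -0.26 to 0.17 on primary and -0.94 to 1.89 on secondary arrays. Of 4 tested markers 2 had negative and 2 positive estimates for passage, and 1 fell. The photoreceptor gene Crx and the pigment epithelium genes Best1, Rpe65 and Tyrp1 were not well above background on any array. The log2 of the summed signal of 4 markers of epiblast, where Otx2 is also active, ran from 4.01 to 5.05 on primary arrays, 4.39 to 4.42 in SN_control and 2.38 to 2.80 in SN_NFIA. Among them Pou3f1 fell with passage (-1.38 ± 0.28, limma adjusted p = 0.0331). The log2 of the summed signal of 6 choroid plexus markers ran from 1.01 to 2.16 on primary and 0.46 to 2.44 on secondary arrays, with 0 of 5 tested past the test for passage. Over both passages 1 of these 5 was higher in NFIA cells, where 1.97% of all genes passed.

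Some related genes of forebrain patterning fell with passage as well. Of 24 listed other forebrain and eye field transcription factors 20 were tested, 3 fell and 0 rose over passage, where 3.88% of all genes tested fell, and 17 were negative (median -1.11). Fezf1 and Fezf2, zinc finger repressors of the forebrain, were well above background on 3 and 2 of 4 secondary arrays and fell by at least 8.57-fold and 6.81-fold (limma adjusted p = 0.0178 and 0.0310). Lhx9, a LIM homeodomain relative of Lhx2, fell by 3.01 ± 0.37 on the log2 scale (limma adjusted p = 0.0142). For NFIA 0 of these 20 passed over both passages, where 1.97% of all genes did. Fezf1, not well above background in SN_NFIA 2, had the smallest p, at -1.55 ± 0.47 (limma adjusted p = 0.154).

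Genes of the dorsal telencephalic lineage, downstream of PAX6 or EMX2, had 10 of 12 tested, with 3 falling (3.88% of all genes tested fell) and 0 rising over passage and 9 negative (median -1.25). Tbr1, a T-box factor of early cortical neurons, fell by 4.78 ± 0.40 on the log2 scale (limma adjusted p = 0.00911), and Eomes, the factor of intermediate progenitors that give rise to them, by 2.69 ± 0.34 (limma adjusted p = 0.0143), with Eomes well above background on all 8 arrays. Neurod1, a neuronal differentiation factor, was not well above background on any secondary array and was at least 3.58-fold higher in primary neurospheres (limma adjusted p = 0.0143). Tbr1 stood at 3.51 and 2.47 in PN_control, 2.91 and 1.81 in PN_NFIA, -1.37 and -2.54 in SN_control, and -1.83 and -2.68 in SN_NFIA. Its primary and secondary arrays lay more than 3 log2 units apart, while NFIA and control arrays overlapped in each passage. For NFIA over both passages 0 of 10 passed, where 1.97% of all genes did. Eomes had the smallest p, at -1.51 ± 0.34 (limma adjusted p = 0.0742). Neurod1 had the next, and no value is given for it since its secondary arrays were at background.

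**Figure D4:**
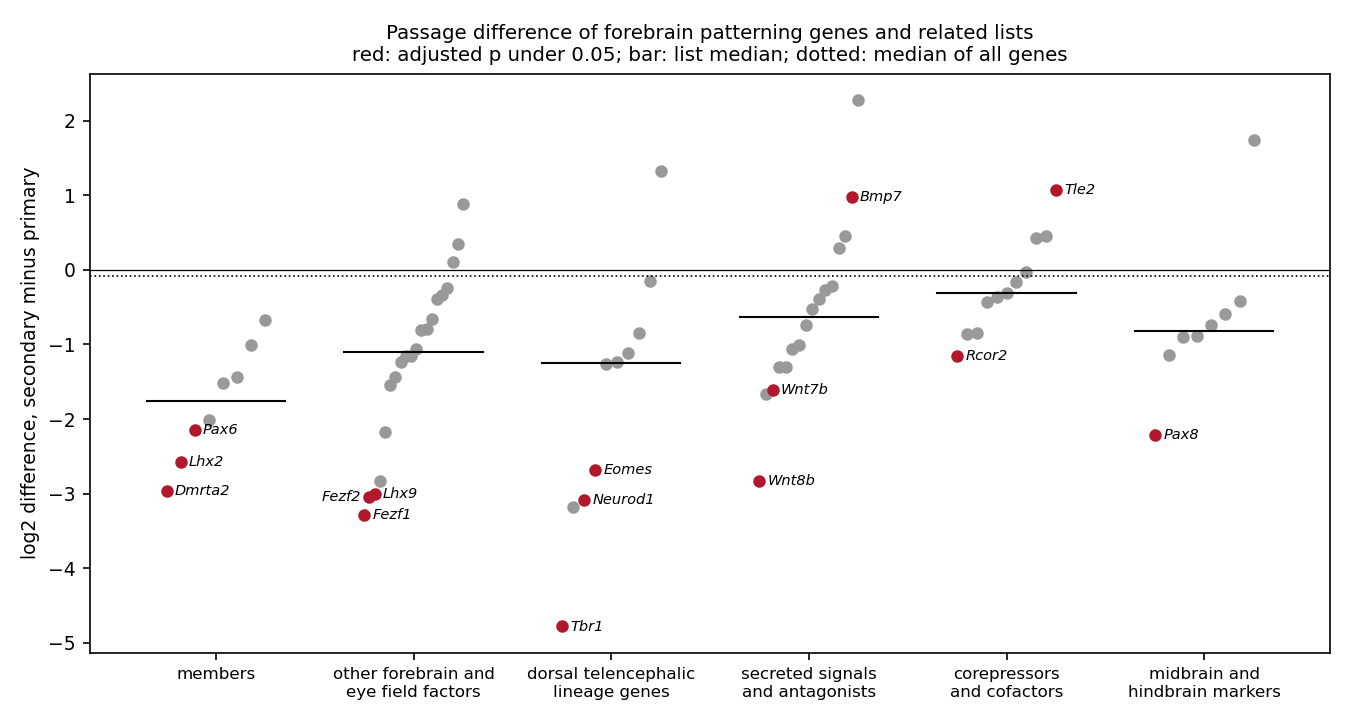
Log2 difference of secondary minus primary neurospheres over both cell types (y axis) for the members and for tested genes of 5 related lists, a point per gene. Red and named are genes with an adjusted p under 0.05, values are as measured, dim spots included, bars are list medians and the dotted line is the median of all genes; Tbr1 lies lowest at -4.78, and the medians run from -1.76 for the members to -0.32 for corepressors and cofactors.

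Of 18 secreted patterning signals and antagonists 16 were tested, and 2 fell and 1 rose with passage (median -0.63). Of all genes tested 3.88% fell and 3.42% rose, also for the lists that follow. Wnt8b, a Wnt ligand of the cortical hem and hippocampal primordium, was well above background on 1 of 4 secondary arrays and fell by at least 3.24-fold (limma adjusted p = 0.0449). Wnt7b fell by 1.61 ± 0.29 on the log2 scale (limma adjusted p = 0.0248), while Bmp7, a BMP ligand, rose by 0.97 ± 0.22 (limma adjusted p = 0.0426). With NFIA 0 of 16 passed, where 1.97% of all genes did over both passages. Fgf8, the ligand of the anterior forebrain signalling centre, was at -1.31 ± 0.39 and Wnt7b at -0.89 ± 0.29. Of 11 corepressors and cofactors of the members, Rcor2 fell (-1.15 ± 0.18, limma adjusted p = 0.0188) and the Groucho-type corepressor Tle2 rose with passage (1.07 ± 0.24, limma adjusted p = 0.0417). With NFIA 0 of 11 passed, again where 1.97% of all genes did. Tle2 was at 1.19 ± 0.24 (limma adjusted p = 0.0556) and Rcor2 at -0.68 ± 0.18 (limma adjusted p = 0.107). Of 8 tested markers of midbrain and hindbrain, 0 rose and 1, Pax8, fell with passage by at least 2.05-fold (limma adjusted p = 0.0345; 1 of 4 secondary arrays well above background), 7 were negative and the median was -0.82. Of the antisense and divergent transcripts beside members, Six3os1 and Emx2os were tested and 0 of 2 passed for passage; Six3os1 differed by -0.40 ± 0.60, and Emx2os was not well above background on any secondary array. Six3os1 stood at 2.48 and 3.92 in PN_control, 1.81 and 2.99 in PN_NFIA, 3.54 and 1.29 in SN_control, and 3.03 and 1.76 in SN_NFIA, with the higher array of each group the same as for Six3.

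Among themselves the members did not follow 1 pattern. Over the 8 arrays Pearson's r between pairs ran from 0.29 for Six3 and Dmrta2 to 0.97 for Emx2 and Nr2e1, with a median of 0.77 over 28 pairs, and the arrays share slide, passage and scaling. Pax6 went with Dmrta2 and with Nr2e1 (r = 0.93 for both), and Otx1 with Otx2 (r = 0.95). Of all genes tested, those most like Dmrta2 were Rad54b, a gene of recombination repair, and Vipr2, a receptor for vasoactive intestinal peptide (r = 0.99 for both). Those most like Pax6 were Ccdc61 and Ninl (r = 0.99 and 0.98), like Lhx2 Lhx9 and Ripply2 (0.96 for both), like Nr2e1 Abhd10 and Emx2 (0.97 for both), and like Emx2 Jund and Nr2e1 (0.98 and 0.97). Otx1 was most like Igf1r and Wiz (0.99 and 0.98), Otx2 most like Fam193b and Trim24 (0.99 for both), and for Six3 Kdm6b was among the 2 most like it (0.97). Otx1 was not well above background in SN_control 2 (-5.28) and SN_NFIA 2 (-6.04), and lay between -3.08 and -2.26 elsewhere. Those 2 dim spots weigh in every r of Otx1, that with Otx2 included, and r without them was not computed. The r values of Emx2 also include a dim spot, in SN_control 2. Among all 13779 genes tested, between 81 and 437 had an r above 0.9 to a member, and 6 of the 28 member pairs had one. With 8 arrays, and members chosen with earlier results known, neither count is a test of likeness.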

How the data were processed

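Each of 8 samples was hybridised to its own 1-colour Agilent array. Per the file headers, Feature Extraction 10.5.1.1 wrote a background-subtracted intensity for every spot. The deposited files also hold other values, flags of 0 or 1, for outliers and signal above background. The submitters' processing notes name version 10.7.3.1. The deposited value table holds log2 values, which by the values are signals scaled to the 75th percentile of the array and centred per probe (largest absolute probe median 0.000245). Its columns matched 1 scanner file each (r of at least 0.9998, any other file at most 0.339), and arrays were assigned by it.

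The 75th percentile of log2 signal was subtracted on each array. Spots with outlier flags were left out of the mean of a probe, and 126 probes with no unflagged spot on some array were dropped. The filter on dim signal (both arrays of some group well above background) passed 30177 probes, and the brightest kept probe stood for a gene. RefSeq accessions gave names to 26004 probes. The fits, in limma 3.58.1 (R 4.3.3), used an additive model of NFIA and passage over all 8 arrays, and 4 group means for NFIA within a passage. On simulated arrays (13779 genes, 200 changed), a passage change of 1 in log2 was recovered for 31% and of 2 for 71% of changed genes. For NFIA over both passages these shares were 32% and 75%. Within primary neurospheres they were 1% and 43%, and within secondary ones 1% and 40%. A lack of calls within a passage therefore says little about changes near 1 in log2. Members and lists were chosen with earlier results of these data known. Named genes are the members, list genes past the test or with the 2 smallest p for NFIA or passage over all arrays, and the 2 genes most correlated with each member. The files had no mean signal per spot, so the normexp alternative used the median signal and background. Some genes that the naming rule gives are not reported here. In "at least" folds, a spot not well above background is set to the array's dimmest probe that was, unless its own signal is higher. The adjusted p beside such a fold is from the limma fit to the signals as measured, dim spots included. The fold itself was not tested.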

Additional observations from a re-analysis of the deposited data

How the results depend on the processing

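The number of members past the test was 3 for passage and 0 for each NFIA comparison. For passage it was 0 with arrays assigned as the scanner files are attached and 0 without the 2 arrays whose source name says WT, and it ran from 1 to 4 with 1 array left out. For NFIA over both passages it ran from 0 to 1. It stayed at 0 within primary and within secondary neurospheres and for their difference under every alternative run. The genes called in all ran from 0 to 356 for NFIA over both passages, 0 to 139 in primary and 0 to 646 in secondary neurospheres, 0 to 30 for their difference and 0 to 1669 for passage over the alternatives, against 271, 43, 129, 0 and 1006.

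Same-numbered NFIA and control arrays deviated together within a passage (r = 0.45 in primary and 0.48 in secondary neurospheres), which the labels do not explain. The replicate block gave 0 members for each NFIA comparison and 3 for passage, and 345, 69, 646, 0 and 1112 genes in the order above. Numbers across passages did not pair (r = -0.19 in control cells), and a crossed block, chosen after seeing the data, gave 3 members and 1367 genes for passage.

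Under the alternatives 632 values of members kept direction and side of the threshold, 15 lost and 5 gained a call, and 60 turned in sign. With arrays as the files are attached, those that turned were, for passage, Emx2 0.75, Lhx2 1.36, Nr2e1 0.79, Pax6 0.33 and Six3 0.019; for NFIA over both passages Lhx2 0.22 and Otx1 0.32; in secondary neurospheres Emx2 -0.10, Lhx2 0.48, Otx1 1.89, Otx2 0.52, Pax6 -0.35 and Six3 0.85; and for the difference between passages Dmrta2 -0.21, Lhx2 0.52 and Otx1 3.13. By the source names Dmrta2 was at 0.47, Emx2 0.013, Nr2e1 0.18, Otx1 1.37, Otx2 0.70, Pax6 0.17 and Six3 0.83. Without the 2 arrays named WT, Otx1 was at 0.32 over both passages, Otx1 0.69 and Otx2 0.25 in secondary neurospheres, and Otx1 0.73 and Six3 -0.089 for the difference. With normexp background correction Emx2 in secondary neurospheres was at -0.10. The cause was not tested.

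With 1 array left out, NFIA over both passages ran from -0.84 to 0.048 for Emx2 and -1.01 to 0.20 for Otx1. In primary neurospheres Lhx2 ran from -1.02 to 0.037, Otx1 from -0.40 to 0.10 and Six3 from -1.34 to 0.059. In secondary neurospheres the ranges were -0.78 to 1.43 for Emx2, -2.02 to 0.17 for Lhx2, -1.43 to 1.08 for Nr2e1, -2.30 to 0.73 for Otx1, -0.99 to 0.40 for Otx2, -0.28 to 0.55 for Pax6 and -1.90 to 0.95 for Six3. For the difference between passages they were -0.027 to 0.89 for Dmrta2, -1.53 to 0.66 for Lhx2, -0.34 to 2.17 for Nr2e1, -2.15 to 0.88 for Otx1, -0.52 to 0.87 for Otx2 and -1.26 to 1.59 for Six3. A lone array of a group was taken to vary like the other groups. Low signal limits Emx1, Otx1, Emx2 and the dimmer Pax6 probe.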
